A study of Mus musculus with 17 samples.

Results

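Cytosolic ribosomal protein genes were taken as every gene that GENCODE types as protein-coding and whose symbol begins with Rpl or Rps and a number, together with *Rpsa*, *Rplp0*, *Rplp1* and *Rplp2*, leaving out the S6 kinases. The rule found 93 of the 55359 genes measured. They comprised 46 genes of the large subunit, 31 genes of the small subunit and 16 further genes that share the naming. These 16 were the paralogs *Rpl3l*, *Rpl7l1*, *Rpl10l*, *Rpl22l1*, *Rpl36al*, *Rpl39l*, *Rps4l* and *Rps27l*, the retrogenes *Rpl27rt*, *Rpl35rt* and *Rps27rt*, the copies *Rpl9-ps6*, *Rpl10-ps3* and *Rps18-ps6*, which carry pseudogene names but are typed as protein-coding, and *Rps19bp1* and *Rps23rg1*, which are not ribosome subunits. The subunit genes *Fau* and *Rack1* fall outside the symbol rule and are counted with the related gene lists.

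The cytosolic ribosome is built from ribosomal RNA and a set of proteins that are needed in matched amounts. The small subunit decodes the mRNA and the large subunit joins amino acids. Transcripts of these genes begin with a run of pyrimidines, the 5' TOP element, through which mTORC1 signalling sets their translation, and many of them have processed pseudogenes scattered through the genome, so that short reads are hard to place.

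RNA was sequenced from testes and forebrain of male pups at postnatal day 1. The mutant pups carried the *Ocn*_GK allele, in which the osteocalcin genes were removed by homologous recombination in embryonic stem cells, on a 129/SvEv background. WT pups (2 testes and 3 forebrain libraries) were born to WT mothers, and *Ocn*+/- pups (called Het) and *Ocn*-/- pups (called KO), with 3 libraries each per organ, were all born to *Ocn*-/- mothers. Pup genotype, maternal genotype and litter therefore cannot be told apart in any comparison with WT, whereas KO and Het pups share the maternal genotype. The labels call the brain samples hippocampus and the study calls them forebrain. Levels of single genes are in CPM (counts per M of effective library size), whereas marker sums are in CPM of the total counts. Summed neuron markers reached 3576 to 4629 CPM in WT forebrain against 25.6 to 30.2 in WT testes. Sertoli cell markers reached 982 to 1088 in WT testes against 44.2 to 55.5 in WT forebrain. The deleted gene gave no check of the genotypes, since *Bglap* had 0 to 5 counts in every library and *Bglap2* had none.

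The 8 testes libraries held 7302401 to 8289015 counts and the 9 forebrain libraries 6518151 to 14621584. The shallowest, forebrain WT replicate 3, stood apart, with 8.50% of its counts on a copy of 18S ribosomal RNA against 0.261% to 0.805% in the other forebrain libraries. In testes the libraries also differed in how their gene levels followed transcript GC content. Over 10806 genes outside the set, the Spearman correlation of a gene's deviation from its mean with GC was -0.44 and -0.27 in WT, 0.53, 0.17 and 0.58 in Het, and 0.042, -0.63 and 0.14 in KO libraries. The Het replicates 1 and 3 were farthest from WT in this relation, and KO replicate 2 lay on the WT side. Forebrain libraries differed too, over 10127 genes, at -0.31 to 0.10 in WT, -0.0082 to 0.46 in Het and -0.20 to 0.37 in KO. The part of GC content in the forebrain results was not tested beyond the refits given. Cell type markers moved with genotype as well. The 6 Leydig cell markers summed to 1617 to 1700.5 CPM in WT, 721 to 1244 in Het and 738 to 1173 in KO testes, and the 4 endothelial markers to 463 to 482, 322 to 369 and 303 to 327 CPM, all detected in every testes library. Sertoli cell markers summed to 982 to 1088, 1046 to 1348 and 1159.6 to 1577 CPM. The erythroid markers, all but *Hbb-y* detected in every testes library, summed to 2483 to 6583 CPM in WT, 873 to 4048 in Het and 1307 to 2601 in KO testes. Of 14 immediate-early genes, 3 fell in Het and 4 in KO testes and 0 rose in Het and 0 in KO, with medians of -0.22 and -0.77. In bulk tissue, fewer cells of a type and less RNA per cell cannot be told apart. The part of cell makeup, immediate-early genes and GC content in the testes results below was not tested beyond the values given.

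The start regions of several of these genes are shown because the pyrimidine run at the start defines the gene class, with the reservation that an annotated start need not be the start used in these organs. RefSeq promoters of build GRCm38.p6 (250 bases before to 50 after each start) matched 67 of the 93 genes, 57 of them subunit genes. Each line runs from 40 bases before to 30 bases after the annotated start, 5' to 3' on the gene's strand, with capitals marking the longest stretch of C and T that touches the window from 10 bases before to 20 after the start. The first 5 genes were lower in mutant testes, *Rplp2* and *Rpl27* had their higher values there, and *Rpl41* and *Rpl35a* changed in forebrain.
Rpl35, chr2:39005102-39005171, strand -: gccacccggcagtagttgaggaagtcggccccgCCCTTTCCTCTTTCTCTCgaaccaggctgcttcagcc
Rps10, chr17:27635215-27635284, strand -: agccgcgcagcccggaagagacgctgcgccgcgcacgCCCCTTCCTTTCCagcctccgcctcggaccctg
Rpl28, chr7:4792925-4792994, strand +: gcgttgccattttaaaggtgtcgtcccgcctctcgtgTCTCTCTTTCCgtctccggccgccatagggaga
Rps3a1, chr3:86142639-86142708, strand -: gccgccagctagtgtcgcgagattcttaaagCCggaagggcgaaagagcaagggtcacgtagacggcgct
Rpl22l1, chr3:28805468-28805537, strand +: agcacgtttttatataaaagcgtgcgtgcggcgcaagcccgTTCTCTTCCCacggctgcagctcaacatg
Rplp2, chr7:141447611-141447680, strand +: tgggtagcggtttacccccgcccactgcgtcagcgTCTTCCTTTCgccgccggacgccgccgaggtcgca
Rpl27, chr11:101442205-101442274, strand +: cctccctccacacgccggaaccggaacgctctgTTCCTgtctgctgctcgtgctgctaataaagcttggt
Rpl41, chr10:128549139-128549208, strand -: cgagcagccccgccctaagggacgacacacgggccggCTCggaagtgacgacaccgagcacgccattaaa
Rpl35a, chr16:33056442-33056511, strand +: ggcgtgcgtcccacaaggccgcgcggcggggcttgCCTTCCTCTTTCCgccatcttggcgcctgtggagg

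The run reached 18 bases in *Rpl35*, 13 in *Rps10* and *Rpl35a*, and 10 in *Rplp2* and *Rpl22l1*, but only 3 in *Rpl41* and 2 in *Rps3a1* at their annotated starts. A run of 8 bases or more was present in 50.9% of the 57 subunit genes and in 19.2% of all 27025 genes with a promoter. Of the motifs searched on both strands of the 300 bases, CTTTCC was present in 50.9% of subunit genes against 29.3% of all genes. CTCTTTCC, which contains CTTTCC, was present in 17.5% against 3.57%. CCGGAAG, a form of the ETS family site, was present in 42.1% against 9.93%. TATAAA was present in 10.5% against 15.7%. CACGTG, the E-box that Myc can bind, was present in 10.5% against 8.09%, and a YY1 site in 3.51% against 0.995%. Among the 12 matched subunit genes that fell in Het testes, CCGGAAG was found in 41.7%, against 42.2% of the other 45. The shares were 50% and 51.1% for CTTTCC and 8.33% and 20% for CTCTTTCC. Runs of 8 bases or more were present in 66.7% of the genes that fell, with a median run of 9.5 bases, and in 46.7% of the others, with a median of 7. These differences were not tested.

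The 93 genes together held 3.64% ± 0.316 (SD, n = 8) of the counts of a testes library and 1.95% ± 0.155 (SD, n = 9) of those of a forebrain library. Much of this rests on reads that could be placed elsewhere. Over stretches of 50 bases of coding sequence, the median gene shared 91.3% of its stretches with the transcripts of other genes, 78 shared over 50% and 34 shared all of them. Among the least shared subunit genes were *Rps3* at 8.09%, *Rpl8* at 8.73% and *Rpl4* at 20.3%, so that their values depend least on how shared reads were assigned. The 318 pseudogenes named after these genes received 3.76 to 4.29 counts for every 100 counts on the genes themselves in every library.

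Per length, the subunit genes spanned a wide range. Levels across organs are on a scale set over all 17 libraries together, and genotype comparisons within an organ on a scale set within that organ. With CPM divided by kb of the shortest consensus coding sequence, a length chosen after the lengths were seen because the canonical transcripts of several of these genes include retained introns, the median of the 77 subunit genes was 759 in testes, with quartiles of 636 and 980.1, and 509 in forebrain, with quartiles of 408 and 653. In testes the highest level was that of *Rpl41*, whose product is the smallest ribosomal protein, at 5540.4 ± 1199 CPM per kb (SD, n = 8). It was followed by *Rps29* at 2364 ± 688, *Rps24* at 2145 ± 200.3, *Rpl23a* at 1569.9 ± 312 and *Rpl39* at 1487 ± 338 CPM per kb. *Rps29* and *Rps24*, and *Rpl23a* and *Rpl39*, did not differ beyond their spread. In forebrain *Rpl41* again led at 3735 ± 580.0 CPM per kb (SD, n = 9), followed by *Rps29* at 1343 ± 145, *Rps24* at 1262 ± 109, *Rplp1* at 1242 ± 128 and *Rpsa* at 1062 ± 85.5. The lowest subunit gene in both organs was *Rpl29*, at 120.4 ± 26.6 CPM per kb in testes and 94.97 ± 11.2 in forebrain. Per kb of canonical transcript the first place went to *Rpl23a* in testes and *Rplp1* in forebrain, so the order at the top depends on the length used. The further members had a median of 66.8 CPM per kb in testes and 38.6 in forebrain. Among members that passed the filter on low counts, which leaves out *Rpl3l* and *Rps23rg1*, the lowest in testes were *Rpl27rt* at 2.04 ± 1.25, *Rpl10l* at 8.81 ± 2.08, *Rps18-ps6* at 12.3 ± 7.62, *Rps19bp1* at 20.2 ± 4.998 and *Rpl10-ps3* at 28.1 ± 5.69 CPM per kb. In forebrain the lowest were *Rps27rt* at 19.3 ± 5.96, *Rps18-ps6* at 2.29 ± 0.881, *Rpl39l* at 0.354 ± 0.461 and *Rpl27rt* at 0.0199 ± 0.0598 CPM per kb, and *Rpl10l* had no counts there.

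In mutant testes more ribosomal protein genes fell than rose, and most did not pass the test. Of the 91 genes that passed the filter on low counts, 18 fell and 4 rose in Het testes (adjusted p below 0.05, edgeR quasi-likelihood test, adjusted over all genes), which is 24.2% of them against 8.25% of all 16361 genes tested. In KO testes 9 fell and 0 rose, 9.89% against 5.64% of all genes. The median log2 fold change of the 91 genes was -0.17 in Het and -0.30 in KO testes, beside medians of 0.0066 and -0.0064 over all genes. The 77 genes that shared most of their stretches with other genes had medians of -0.22 in Het and -0.32 in KO testes. The other 14, whose values depend less on how shared reads were assigned, had medians of 0.075 and -0.080. These 14 include further members such as *Rps4l*, *Rps27l* and *Rpl39l*, and the part of read sharing in the lowering was not tested. The large subunit had 10 genes that fell and 2 that rose of 46 in Het and 6 that fell in KO testes, with medians of -0.25 and -0.34. The small subunit had 6 that fell and 1 that rose of 31 in Het and 2 that fell in KO testes, with medians of -0.16 and -0.28. The further members had 2 that fell and 1 that rose of 14 in Het and 1 that fell in KO testes. Their medians were 0.0039 and 0.015, so they did not share the lowering of the subunit genes. For 38 of the 91 genes (41.8%) no mutant testis (of 6) reached either WT testis from below, against 13.6% of all genes, and for 1 gene (1.1%) none reached WT from above, against 12.5%. *Rpl3l* and *Rps23rg1* did not pass the filter. Both comparisons share the 2 WT testes.

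Leaving out a WT testes library leaves a single WT library, whose spread is then assumed to be that of the mutant libraries. Without WT replicate 1 no ribosomal protein gene was called in Het or KO testes, and without WT replicate 2 none was called either, where all genes together gave 131 and 118 calls in Het and 231 and 85 in KO testes. The median of the set stayed negative with any testes library left out, at -0.25 to -0.091 for Het and -0.33 to -0.23 for KO. Without KO replicate 2, 24 genes fell and 3 rose in KO testes, whereas 1 fell without replicate 1 and 2 without replicate 3, and 17 fell there without Het replicate 2. In Het testes 4 fell and 1 rose without replicate 1, and 7 fell without replicate 3. Calls over all genes are not given for these refits, so a move of the set cannot be told from a move of all genes. With offsets by GC content 12 fell and 1 rose in Het and 9 fell in KO testes, with medians of -0.20 and -0.29, and the calls of *Rpl4* and *Rpl22l1* in Het and of *Rpl35* in KO testes were among those lost. After pseudogene counts were added to their parents, *Rpl30* no longer passed in Het testes. Scaled to library size alone, which moved the median of all genes in Het testes to 0.084, 12 fell and 5 rose.

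**Figure D1:**
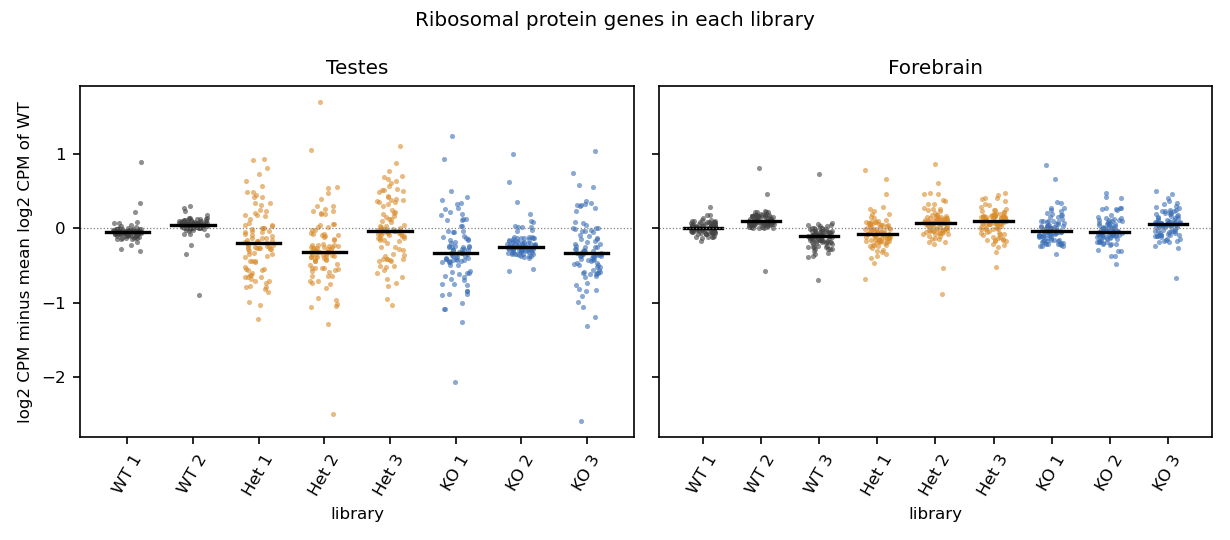
Each point is a ribosomal protein gene in a library, plotted as its log2 CPM minus its mean log2 CPM over the WT libraries of that organ, with the black bar at the median (91 genes in testes, 88 in forebrain). All 6 mutant testes have medians below 0, from -0.33 in KO replicate 3 to -0.03 in Het replicate 3, whereas the forebrain medians lie on both sides of 0.

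The mutant testes did not shift as a block. The median deviation from the WT mean was -0.20, -0.32 and -0.03 in Het and -0.33, -0.24 and -0.33 in KO replicates 1, 2 and 3. In Het replicate 3 the upper quartile stood at 0.31 and the lower at -0.27, while in KO replicate 2 they stood at -0.16 and -0.29. The plot of deviations by library shows this as a wide spread of genes in 5 mutant testes and a narrow, evenly lowered band in KO replicate 2. Of the 91 genes, 41 in KO replicate 2 and 51 in Het replicate 3 lay nearer the WT mean than the mean of the other mutants, against 12 and 13 in the other KO and 22 and 13 in the other Het libraries. Across the 91 genes the log2 fold change had a Spearman correlation with transcript GC of 0.39 in Het and 0.29 in KO testes, and over the other genes of 0.43 and 0.15. These points share the same libraries.

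**Figure D2:**
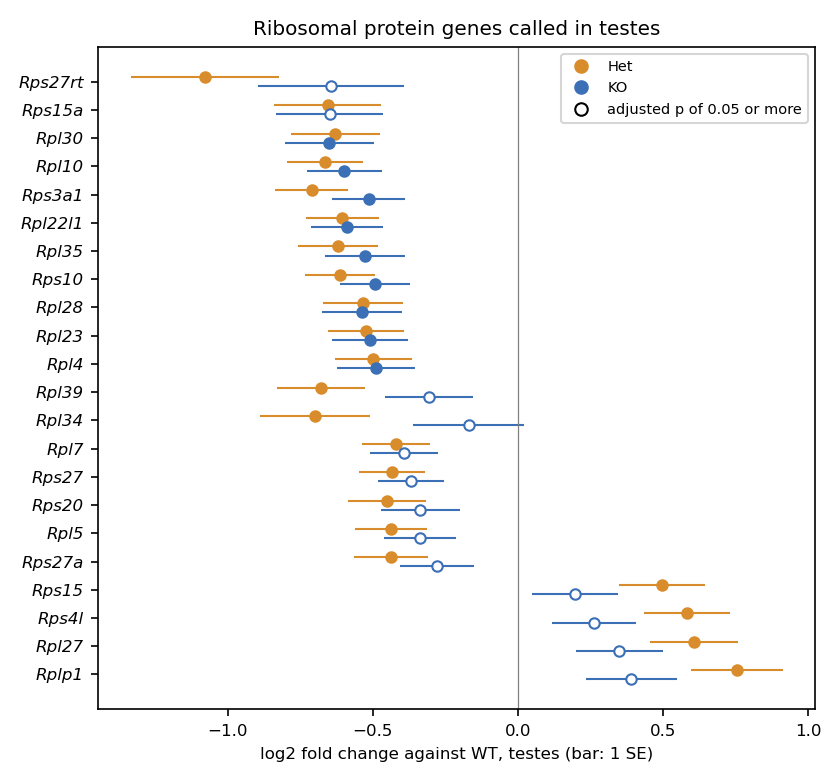
Log2 fold changes against WT in testes, with bars of 1 SE, of the 22 ribosomal protein genes called in Het or KO testes, Het in orange and KO in blue. Open symbols did not pass the test, and 18 genes lie below 0 and 4 above it in both genotypes.

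The 9 genes called in both mutant genotypes were *Rpl4*, *Rpl10*, *Rpl23*, *Rpl28*, *Rpl30*, *Rpl35*, *Rps3a1*, *Rps10* and the paralog *Rpl22l1*, and all 9 fell. Coordinates are those of build GRCm39. *Rps3a1* (chr3:86045244-86050009), a small subunit protein near the mRNA exit, had 504 and 529 CPM in WT, 285, 358 and 303 CPM in Het and 347, 396 and 342 CPM in KO testes, with log2 fold changes of -0.71 ± 0.13 (SE, adjusted p = 0.00429) in Het and -0.51 ± 0.13 (SE, adjusted p = 0.0262) in KO. *Rpl10* (chrX:73314418-73316741), whose protein joins the large subunit late and completes the peptidyl transferase region, had 966 and 1099.8 CPM in WT, 601, 698 and 655 CPM in Het and 644, 784 and 620.5 CPM in KO testes, with log2 fold changes of -0.66 ± 0.13 (SE, adjusted p = 0.00751) in Het and -0.60 ± 0.13 (SE, adjusted p = 0.0146) in KO. In both genes every mutant testis lay below both WT testes. *Rpl22l1* (chr3:28859585-28861573), the paralog of the RNA-binding protein Rpl22, had 137 and 137 CPM in WT, 93.1, 81.5 and 95.4 CPM in Het and 99.9, 92.1 and 80.9 CPM in KO testes, with log2 fold changes of -0.60 ± 0.12 (SE, adjusted p = 0.00969) in Het and -0.59 ± 0.12 (SE, adjusted p = 0.0121) in KO. With offsets by GC content *Rpl22l1* no longer passed in Het testes (log2 fold change -0.33, adjusted p = 0.161, edgeR).

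*Rps10* (chr17:27849390-27855643) had 437 and 474 CPM in WT, 278, 315 and 301 CPM in Het and 302, 361 and 309 CPM in KO testes, with log2 fold changes of -0.61 ± 0.12 (SE, adjusted p = 0.00818) in Het and -0.49 ± 0.12 (SE, adjusted p = 0.0274) in KO. *Rpl35* (chr2:38891591-38895637), which lies at the exit of the peptide tunnel and carries the longest pyrimidine run printed above, had 254 and 256 CPM in WT, 147, 177 and 173 CPM in Het and 152, 208 and 170.1 CPM in KO testes, with log2 fold changes of -0.62 ± 0.14 (SE, adjusted p = 0.0143) in Het and -0.53 ± 0.14 (SE, adjusted p = 0.0342) in KO. The *Rpl35* value of KO replicate 2 came nearest to WT. *Rpl30* (chr15:34440430-34443879) had 229 and 254 CPM in WT, 151, 148 and 170.1 CPM in Het and 132, 194 and 137 CPM in KO testes, with log2 fold changes of -0.63 ± 0.15 (SE, adjusted p = 0.0212) in Het and -0.65 ± 0.15 (SE, adjusted p = 0.0219) in KO. *Rpl28* (chr7:4795873-4799713) had 421 and 451 CPM in WT, 297, 279 and 328 CPM in Het and 259, 357 and 285 CPM in KO testes, with log2 fold changes of -0.53 ± 0.14 (SE, adjusted p = 0.0274) in Het and -0.54 ± 0.14 (SE, adjusted p = 0.0313) in KO. For these 4 genes, too, both genotypes lay wholly below WT. *Rpl23* (chr11:97668352-97673324) had 798 and 875 CPM in WT, 540.0, 579 and 626 CPM in Het and 545, 686 and 531 CPM in KO testes, with log2 fold changes of -0.52 ± 0.13 (SE, adjusted p = 0.0248) in Het and -0.51 ± 0.13 (SE, adjusted p = 0.0329) in KO. *Rpl4* (chr9:64080618-64086351), which lines part of the peptide tunnel, had 1755 and 1798 CPM in WT, 1132, 1270.1 and 1373 CPM in Het and 1145, 1473 and 1176 CPM in KO testes, with log2 fold changes of -0.50 ± 0.13 (SE, adjusted p = 0.0333) in Het and -0.49 ± 0.13 (SE, adjusted p = 0.042) in KO. *Rpl4* is the gene of the 9 with the fewest shared stretches (20.3%), against 88.3% in *Rps3a1* and 100% in *Rpl10* and *Rpl28*.

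**Figure D3:**
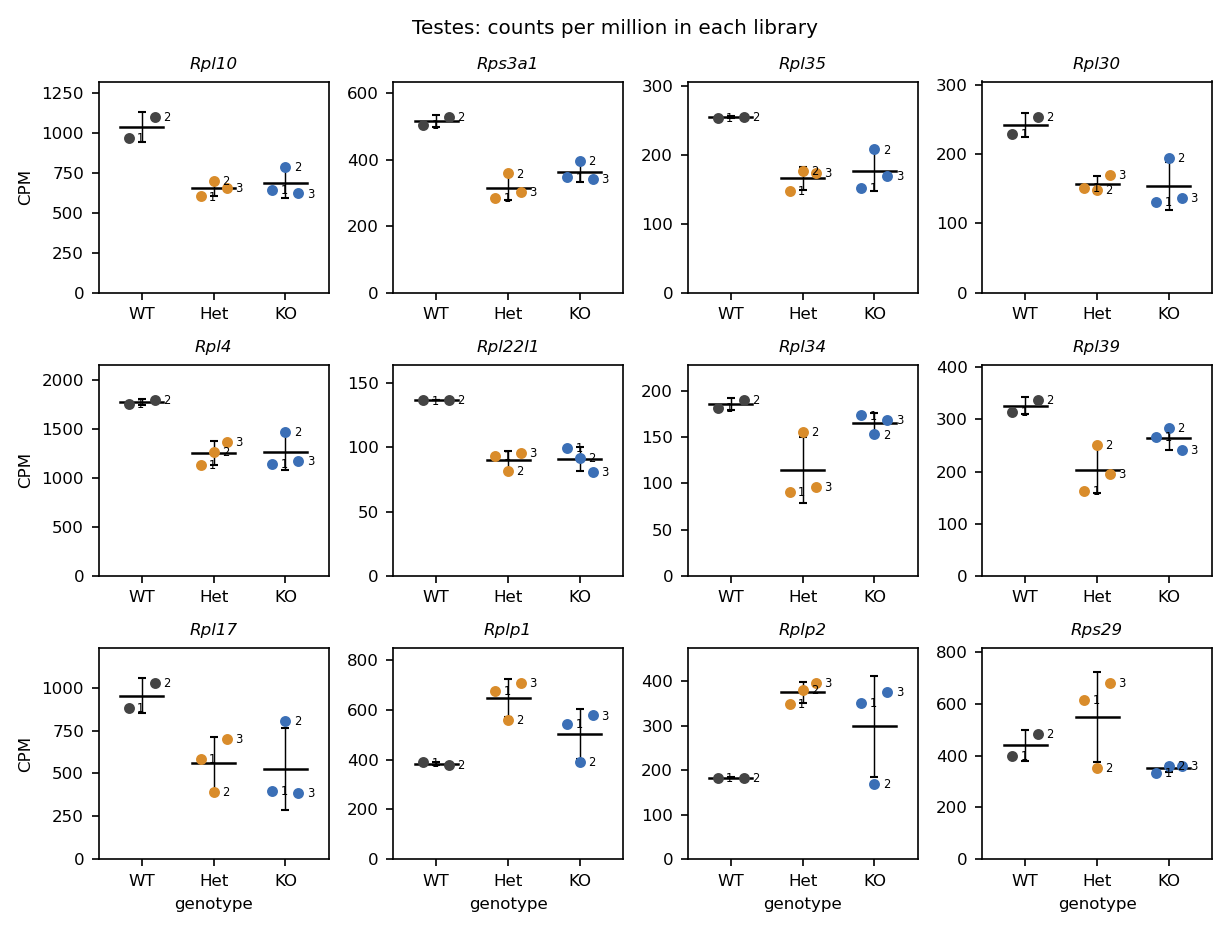
CPM of 12 ribosomal protein genes in each testes library by genotype, with the replicate number beside each point, a bar at the mean and error bars of 1 SD (n = 2 WT, 3 Het, 3 KO). *Rpl10*, *Rps3a1*, *Rpl35*, *Rpl30*, *Rpl4* and *Rpl22l1* are lower in all 6 mutant testes, and *Rplp2* is near its WT values in KO replicate 2, at 169 CPM.

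A further 9 genes fell in Het testes and were not called in KO testes, and the difference between the genotypes was not called for any of them. *Rpl34* had 182 and 190.4 CPM in WT, 91.1, 156 and 96.1 CPM in Het and 174, 153 and 169 CPM in KO testes, with log2 fold changes of -0.70 ± 0.19 (SE, adjusted p = 0.042) in Het and -0.17 ± 0.19 (SE, adjusted p = 0.635) in KO. *Rpl39*, a short protein at the tunnel wall, had 314 and 337 CPM in WT, 164, 251 and 196 CPM in Het and 266, 284 and 241 CPM in KO testes, with log2 fold changes of -0.68 ± 0.15 (SE, adjusted p = 0.0143) in Het and -0.31 ± 0.15 (SE, adjusted p = 0.241) in KO. In both genes Het replicates 1 and 3 were lowest and Het replicate 2 lay with the KO libraries. *Rps15a* had 414 and 425 CPM in WT, 266, 219.6 and 313 CPM in Het and 235, 345 and 223 CPM in KO testes, with log2 fold changes of -0.66 ± 0.18 (SE, adjusted p = 0.0465) in Het and -0.65 ± 0.18 (SE, adjusted p = 0.0587) in KO. *Rps27rt* is a retrogene whose coding sequence is identical to that of *Rps27* over 252 bases, so its 15.9 CPM in WT and its log2 fold change of -1.08 in Het testes depend on how shared reads were split and are uncertain. The other 5 were *Rpl5*, *Rpl7*, *Rps20*, *Rps27* and *Rps27a*, at log2 fold changes of -0.45 to -0.42 in Het and -0.39 to -0.28 in KO testes. *Rpl17* did not pass the test, at 881 and 1027 CPM in WT, 582, 392 and 702 CPM in Het and 397, 804 and 384 CPM in KO testes, and KO replicates 1 and 3 and Het replicate 2 were lowest and KO replicate 2 was nearest to WT. With offsets by GC content, *Rpl5*, *Rpl7*, *Rpl34*, *Rps15a*, *Rps20* and *Rps27a* no longer passed in Het testes.

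The 4 genes that rose in Het testes were *Rplp1*, *Rpl27*, *Rps4l* and *Rps15*. *Rplp1* (chr9:61820557-61821872), an acidic protein of the P stalk that recruits elongation factors, had 388 and 379.7 CPM in WT, 676, 561 and 707 CPM in Het and 542, 390.1 and 577 CPM in KO testes, with log2 fold changes of 0.75 ± 0.16 (SE, adjusted p = 0.0115) in Het and 0.39 ± 0.16 (SE, adjusted p = 0.148) in KO. *Rpl27* had 141 and 135 CPM in WT, 205, 192 and 235 CPM in Het and 185, 139.9 and 203 CPM in KO testes, with log2 fold changes of 0.61 ± 0.15 (SE, adjusted p = 0.0239) in Het and 0.35 ± 0.15 (SE, adjusted p = 0.175) in KO. *Rps4l* had 59.2 and 53.7 CPM in WT, 88.1, 73.9 and 91.9 CPM in Het and 73.3, 57.2 and 72.7 CPM in KO testes, with log2 fold changes of 0.58 ± 0.15 (SE, adjusted p = 0.0251) in Het and 0.26 ± 0.15 (SE, adjusted p = 0.3) in KO. *Rps15* had 194 and 237 CPM in WT, 302, 264 and 347 CPM in Het and 268, 209.9 and 264 CPM in KO testes, with log2 fold changes of 0.50 ± 0.15 (SE, adjusted p = 0.0497) in Het and 0.20 ± 0.15 (SE, adjusted p = 0.455) in KO. In each of these genes KO replicate 2 lay at or close to the WT values while KO replicates 1 and 3 lay above them. With offsets by GC content, the 1 gene that still rose was *Rplp1*, at 0.50 (adjusted p = 0.0286, edgeR), whereas *Rpl27*, *Rps4l* and *Rps15* no longer passed, with *Rpl27* at 0.45 (adjusted p = 0.0524).

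By role, 1 of the 3 P stalk genes rose in Het testes and the other 2 were not called. Besides *Rplp1*, *Rplp2* had 183 and 184 CPM in WT, 349.8, 381 and 396 CPM in Het and 351, 169 and 377 CPM in KO testes, and its log2 fold changes of 1.04 and 0.71 did not pass the test (adjusted p = 0.087 and 0.227, edgeR). *Rplp0*, which anchors the stalk, had 717 and 791 CPM in WT, 677, 575 and 779.8 CPM in Het and 634, 672 and 569 CPM in KO testes, and was not called. Of the proteins that bind Mdm2 when ribosome assembly fails, *Rpl23* fell in both genotypes and *Rpl5*, part of the 5S particle, fell in Het testes with -0.44 ± 0.12 (SE, adjusted p = 0.0401, edgeR). Their partner *Rpl11* had 442 and 443 CPM in WT, 379, 365 and 426 CPM in Het and 332, 406 and 343 CPM in KO testes, and was not called. Of the 9 genes mutated in Diamond-Blackfan anaemia that were listed, *Rpl5* and *Rps10* fell in Het testes and *Rps10* in KO testes, and the median log2 fold changes of the 9 were -0.22 and -0.31. *Rps19*, the most often mutated of them, had 349 and 348 CPM in WT, 318, 316 and 345 CPM in Het and 319, 321 and 337 CPM in KO testes, and was not called. The log2 fold changes of *Rps7*, *Rps24* and *Rps26*, also on this list and not called, lay between -0.26 and 0.015 in Het and between -0.32 and -0.12 in KO testes. *Rps6*, the substrate of the S6 kinases, had 804 and 882 CPM in WT, 508, 804 and 594 CPM in Het and 664, 699 and 689 CPM in KO testes, and was not called. *Rps27a*, which encodes a ubiquitin fusion, fell in Het testes with -0.44 ± 0.13 (SE, adjusted p = 0.0464, edgeR). *Rpsa*, also known as the laminin receptor, had 895 and 903 CPM in WT, 1204, 1111 and 1289 CPM in Het and 1085, 748 and 1058 CPM in KO testes, and was not called.

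In KO against Het testes, which share the maternal genotype, no ribosomal protein gene and 0% of all 16361 genes were called by edgeR. At an unadjusted p below 0.05 there were 20 of the 91, and DESeq2 called 0. The median log2 fold change was -0.12, beside -0.013 over all genes. It was -0.19 without Het replicate 2, -0.046 without Het replicate 3 and -0.062 with offsets by transcript length. Without Het replicate 2, 4 genes fell and 1 rose, and with no filter on low counts 2 fell and 1 rose. In forebrain no ribosomal protein gene was called in KO against Het by edgeR, 0 had an unadjusted p below 0.05, DESeq2 called 0, and 0.00622% of all 16076 genes were called.

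In mutant forebrain few of these genes changed. Of 88 tested, 1 rose and 2 fell in Het forebrain, 3.41% against 3.89% of all 16076 genes, and 1 rose and 2 fell in KO forebrain, 3.41% against 4.85%. These shares are near the background, and the medians of 0.044 and -0.0097 lie beside 0.0059 and 0.0061 over all genes. Their signs turned with the WT libraries used. Without WT replicate 3 they were -0.025 in Het and -0.069 in KO, and without WT replicate 2 they were 0.095 and 0.040. For 8 genes (9.09%) all 6 mutants lay below all 3 WT, against 8.57% of all genes, and for 2 (2.27%) above, against 6.85%. Some cell type markers moved with genotype here as well. The 4 radial glia markers summed to 553 to 704 CPM in WT, 808 to 822 in Het and 715 to 944 in KO forebrain, the 4 olfactory bulb markers to 36.5 to 39.2 CPM in WT, 58.2 to 79.6 in Het and 33.3 to 57.1 in KO forebrain, and the 6 erythroid markers to 516 to 619.8 CPM in WT, 362 to 418 in Het and 502 to 620.0 in KO forebrain. Their part in the forebrain results was not tested. The same 3 large subunit genes passed in both genotypes, which share the WT libraries.

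*Rpl41* (chr10:128383979-128387628) rose. Its coding sequence, shown because it is the shortest of the set, is 75 bases long without the stop codon.
Rpl41: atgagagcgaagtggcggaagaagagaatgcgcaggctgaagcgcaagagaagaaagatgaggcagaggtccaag
It had 209, 219 and 189.8 CPM in WT, 283, 287 and 286 CPM in Het and 237, 285 and 272 CPM in KO forebrain, with log2 fold changes of 0.47 ± 0.081 (SE, adjusted p = 0.00287) in Het and 0.36 ± 0.081 (SE, adjusted p = 0.0153) in KO. All 6 mutant forebrains lay above all 3 WT forebrains. *Rpl35a* (chr16:32876630-32880559), a Diamond-Blackfan gene, had 114, 114 and 104 CPM in WT, 69.3, 76.6 and 77.3 CPM in Het and 95.4, 79.6 and 69.6 CPM in KO forebrain, with log2 fold changes of -0.58 ± 0.10 (SE, adjusted p = 0.0036) in Het and -0.44 ± 0.10 (SE, adjusted p = 0.0177) in KO. *Rpl23a* (chr11:78071753-78074425), which binds nascent peptide factors at the tunnel exit, had 393, 451 and 403 CPM in WT, 322, 358 and 333 CPM in Het and 353, 321 and 346 CPM in KO forebrain, with log2 fold changes of -0.30 ± 0.077 (SE, adjusted p = 0.0354) in Het and -0.29 ± 0.077 (SE, adjusted p = 0.0363) in KO. For *Rpl35a* and *Rpl23a* every mutant forebrain lay below every WT forebrain. Without WT replicate 3, the library with much 18S RNA, *Rpl41* in KO forebrain went to 0.31 (adjusted p = 0.0804, edgeR), *Rpl35a* to -0.48 (adjusted p = 0.0428) and *Rpl23a* to -0.31 (adjusted p = 0.077). That left 2 calls in Het and 1 in KO forebrain, and without KO replicate 2 none was called in KO forebrain. Without KO replicate 3, 3 genes rose and 3 fell in Het forebrain. Scaled to library size alone, which moved the median of all genes to 0.086 in Het and 0.11 in KO, 2 genes rose and 0 fell in KO forebrain, and 1 rose and 1 fell in Het.

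**Figure D4:**
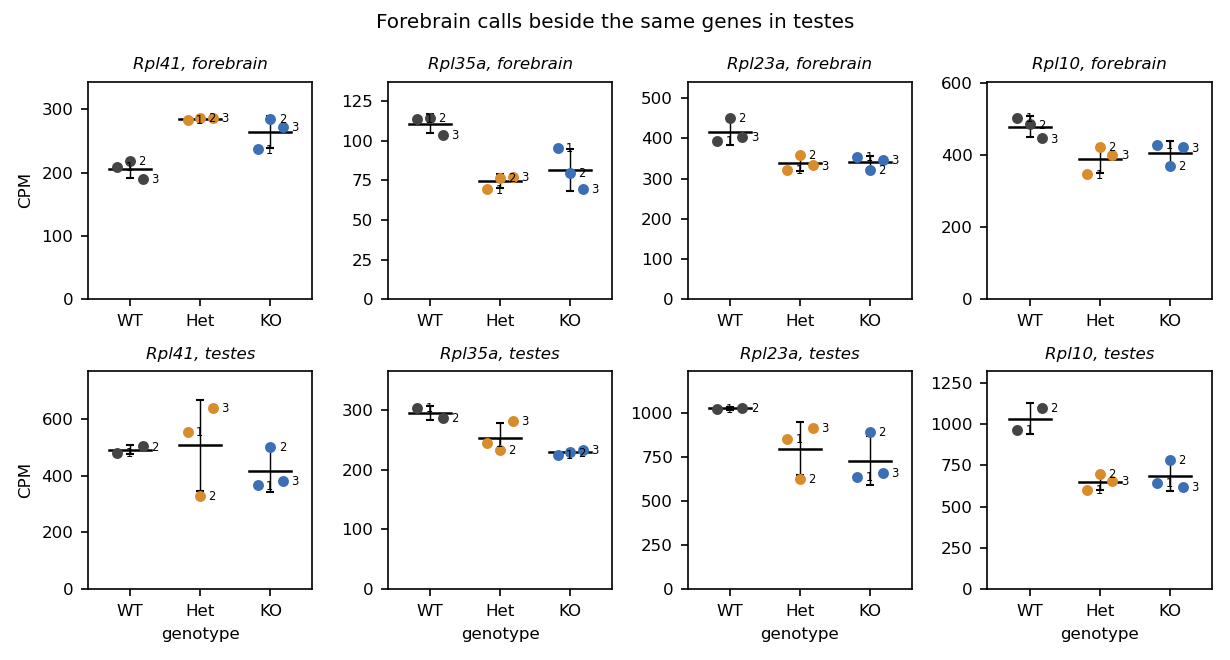
CPM of the 3 genes called in forebrain and of *Rpl10*, with forebrain in the upper row and testes in the lower, by genotype, with replicate numbers, means and error bars of 1 SD (n = 3 per genotype, 2 for WT testes). *Rpl41* is higher in all 6 mutant forebrains but spans 329 to 640.1 CPM among Het testes, and *Rpl10* is lower in all mutants of both organs.

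Next by adjusted p in Het forebrain was *Rpl10*, at 503, 485 and 446 CPM in WT, 346, 422 and 401 CPM in Het and 429, 369.9 and 421 CPM in KO forebrain, with log2 fold changes of -0.30 ± 0.086 (SE, adjusted p = 0.0571) in Het and -0.24 ± 0.086 (SE, adjusted p = 0.111) in KO. *Rps15* had 169, 215 and 172 CPM in WT, 216, 241 and 238 CPM in Het and 205, 222 and 255 CPM in KO forebrain, and its log2 fold changes of 0.32 and 0.29 did not pass the test either. In testes *Rpl41* ran from 329 to 640.1 CPM within Het alone and was not called. *Rpl35a* in testes had 304 and 288 CPM in WT, 245, 234 and 282 CPM in Het and 225, 229 and 234 CPM in KO testes, and *Rpl23a* 1021 and 1031 CPM in WT, 852, 627 and 914 CPM in Het and 638, 893 and 660.4 CPM in KO testes. Neither was called in testes, although all 6 mutants lay below both WT libraries for both genes.

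The mutant effect (Het and KO averaged, relative to WT) was tested for a difference between testes and forebrain in a fit over all 17 libraries. Of 91 genes, 9 had a lower effect in testes and 0 a higher, 9.89% against 2.96% of all 17800 genes, with a median log2 difference of -0.27 beside -0.0076 over all genes. They included *Rpl4*, *Rpl22l1*, *Rpl28*, *Rpl29*, *Rpl35*, *Rps3a1*, *Rps10* and *Rps20*. The log2 difference was -0.69 ± 0.14 (SE, adjusted p = 0.0102) for *Rpl28* and -0.65 ± 0.14 (SE, adjusted p = 0.013) for *Rpl35*, tested with edgeR. *Rpl10*, lower in all mutants of both organs, was not among the 9. Without forebrain WT replicate 3 the count was 2, and it was 4 without forebrain WT replicate 1, Het replicate 2 or Het replicate 3. Without testes WT replicate 1 it was 1, without WT replicate 2 it was 0, without KO replicate 2 it was 24 and without Het replicate 2 it was 14.

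Between the organs, most ribosomal protein genes were higher in newborn testes. With the 3 genotypes weighted equally, 83 of 91 were higher in testes and 2 lower, 93.4% called against 84.4% of all 17800 genes. Their median log2 fold change was 0.67 beside 0.087 over all genes. Scaled to library size alone the medians were 0.99 and 0.40, and by upper quartile 0.82 and 0.23. Relative to the median gene the members stood 0.58 higher, a difference that a scaling common to all genes of a library cannot move, and 0.48 higher with offsets by transcript length, where 81 of 91 fitted values were above 0. Organ and depth moved together, since 8 of the 9 forebrain libraries were deeper than every testes library, and their part in the result was not tested. The subunit genes with the largest difference were *Rpl17* at 1.24 ± 0.15 (SE, adjusted p = 4.17e-06), *Rpl35a* at 1.23 ± 0.062 (SE, adjusted p = 1.54e-15), and *Rpl23* at 1.06 ± 0.057 (SE, adjusted p = 6.86e-15) by edgeR. *Rpl35a* ran from 199.9 to 269.8 CPM in testes and 77.1 to 126 CPM in forebrain, with no overlap. *Rpl17* ran from 345 to 915 CPM in testes and 228 to 281 CPM in forebrain, and had a wide spread within testes. The subunit genes that were not called between organs were *Rpl22* at 192 to 251 CPM in testes and 194 to 246 CPM in forebrain, *Rpl27*, *Rps15*, *Rpsa*, and the stalk genes *Rplp1* and *Rplp2*. *Rplp1* ran from 338 to 620.2 CPM in testes and 328 to 472 CPM in forebrain and *Rplp2* from 148 to 347 CPM in testes and 224 to 254 CPM in forebrain.

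**Figure D5:**
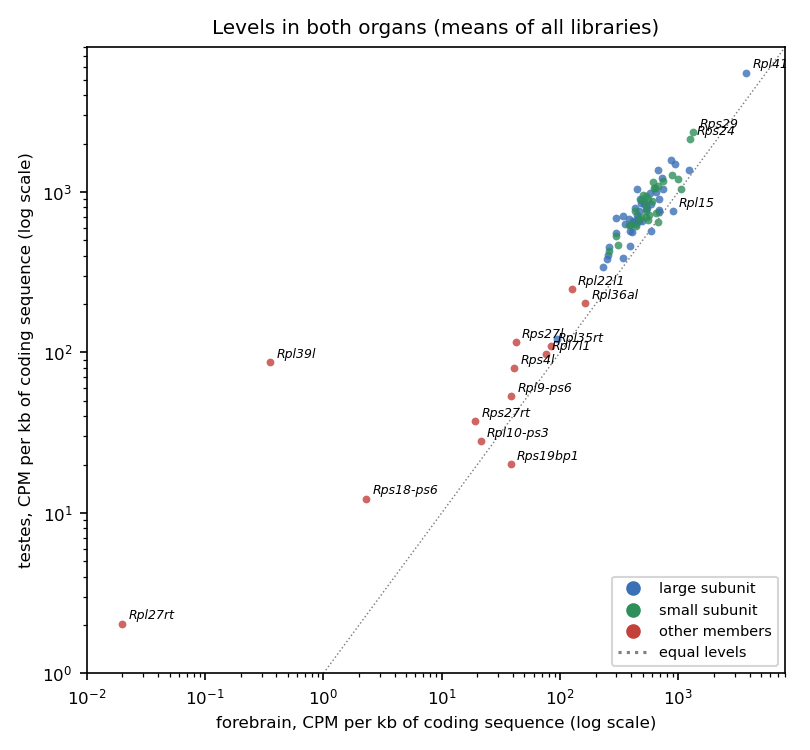
Mean level in testes (n = 8) against forebrain (n = 9), both in CPM per kb of coding sequence on log axes, with a point per gene coloured by subunit and the dotted line at equal levels. Most subunit genes lie above the line, *Rpl39l* lies far above it, and *Rpl10l*, *Rpl3l* and *Rps23rg1* are not drawn because they had no forebrain counts or did not pass the filter.

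The 2 genes lower in testes were *Rps19bp1*, which encodes a regulator of SIRT1 and not a subunit, at -0.97 ± 0.13 (SE, adjusted p = 2.15e-07), and *Rpl15*, at -0.23 ± 0.052 (SE, adjusted p = 0.000343) with 414 to 523 CPM in testes and 501 to 612 CPM in forebrain. Scaled to library size alone *Rpl15* stood at 0.093 (adjusted p = 0.138, edgeR), a flip of direction that goes with the shift of the median of all genes from 0.087 to 0.40, and by upper quartile at -0.079 (adjusted p = 0.166). In the opposite direction *Rpl10l* and *Rpl39l*, paralogs known for their use in male germ cells, had nearly all of their counts in testes. *Rpl39l* had 96 to 161 counts per testes library and 0 to 2 per forebrain library. *Rpl10l* had 30 to 68 counts per testes library and 0 in all 9 forebrain libraries, so that it was at least 13.9-fold higher in testes, taking 3 counts in the shallowest forebrain library as the floor. Such limits cover counting error only. *Rps18-ps6*, whose reads its parent shares, stood at 2.41 ± 0.35 (SE, adjusted p = 2.23e-06) by edgeR and is uncertain. *Rpl27rt* had 3 to 17.8 counts per testes and 0 to 1 per forebrain library. *Rpl3l*, a heart and muscle paralog, had 3 to 8 counts per testes and 0 to 3 per forebrain library and was not tested. Germ cell markers overlapped between genotypes in testes, at 313 to 359 CPM summed in WT, 296 to 355 in Het and 316 to 336 in KO.

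The coding sequences of the germ cell paralog *Rpl39l* and its parent *Rpl39* are shown because reads of this pair can be told apart from each other. *Rpl39* shares 88.5% and *Rps27* 100% of their stretches of 50 bases with other genes. The ratios to these parents given below therefore depend in part on how shared reads were assigned. Both are 153 bases without the stop codon in GRCm39 and differ at 23 positions, given in capitals, and *Rpl39l* shares 0% of its stretches of 50 bases with any other gene.
Rpl39: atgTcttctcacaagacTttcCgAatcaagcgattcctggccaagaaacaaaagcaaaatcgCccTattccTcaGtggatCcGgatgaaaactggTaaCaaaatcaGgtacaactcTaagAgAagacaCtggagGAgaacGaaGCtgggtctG
Rpl39l: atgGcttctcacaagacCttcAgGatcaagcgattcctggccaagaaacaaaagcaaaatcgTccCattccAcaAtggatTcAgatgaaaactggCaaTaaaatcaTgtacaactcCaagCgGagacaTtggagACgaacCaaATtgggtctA
*Rps27* and *Rps27l*, whose expression p53 can induce, differ at 60 of 252 positions.
Rps27: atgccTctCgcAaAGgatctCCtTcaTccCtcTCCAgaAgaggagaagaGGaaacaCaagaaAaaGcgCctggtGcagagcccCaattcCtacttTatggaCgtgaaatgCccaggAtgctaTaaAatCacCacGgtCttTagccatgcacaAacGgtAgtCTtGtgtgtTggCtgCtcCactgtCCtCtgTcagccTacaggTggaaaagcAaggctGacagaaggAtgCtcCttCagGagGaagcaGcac
Rps27l: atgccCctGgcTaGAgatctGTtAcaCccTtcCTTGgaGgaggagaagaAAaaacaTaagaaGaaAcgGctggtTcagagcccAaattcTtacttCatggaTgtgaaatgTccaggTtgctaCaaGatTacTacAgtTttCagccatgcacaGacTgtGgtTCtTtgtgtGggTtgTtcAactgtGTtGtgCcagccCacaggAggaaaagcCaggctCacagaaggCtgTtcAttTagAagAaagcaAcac
For every 100 counts of *Rpl39*, *Rpl39l* received 3.96 ± 0.522 (SD, n = 2) in WT, 9.45 ± 3.59 (SD, n = 3) in Het and 5.10 ± 0.221 (SD, n = 3) in KO testes. *Rpl39l* itself had 13.6 and 12.1 CPM in WT, 21.4, 14.8 and 18.4 CPM in Het and 13.99, 13.8 and 12.5 CPM in KO testes, and was not called. For every 100 counts of *Rps27*, *Rps27l* received 7.59 ± 0.62 in WT, 13.4 ± 3.12 in Het and 10.5 ± 1.91 in KO testes, and 5.87 ± 0.558, 6.004 ± 0.13 and 7.18 ± 1.18 in forebrain (SD). *Rps27l* was 1.43 ± 0.10 (SE, adjusted p = 3.46e-12) higher on the log2 scale in testes than in forebrain by edgeR, with 22.6 to 38.6 CPM in testes and 9.90 to 14.2 CPM in forebrain. For every 100 counts of *Rpl22*, *Rpl22l1* received 49.6 ± 1.40 in WT, 35.8 ± 1.71 in Het and 40.3 ± 3.11 in KO testes (SD), and this ratio was lower in every mutant testis than in either WT testis.

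Other copies could not be told apart. The coding sequence of *Rpl10-ps3* is identical to that of *Rpl10* over 642 bases, *Rpl35rt* and *Rpl9-ps6* each differ from the parent at 1 base and *Rps18-ps6* at 4. For every 100 counts of the parent they received 2.78 ± 0.731, 24.4 ± 5.14, 6.25 ± 1.11 and 1.59 ± 0.912 (SD, n = 8) in testes, and these values are uncertain. *Rpl36al* differs from *Rpl36a* at 39 of 318 bases and received 30.9 ± 7.26 counts per 100 in testes (SD, n = 8) and 39.8 ± 4.09 in forebrain (SD, n = 9). *Rps4l*, at 79.9% identity to *Rps4x*, received 5.25 ± 0.647 counts per 100 in WT, 8.80 ± 0.481 in Het and 8.07 ± 1.37 in KO testes, and 5.09 ± 0.596, 7.46 ± 0.588 and 6.92 ± 0.794 in forebrain (SD). In both organs every mutant library lay above every WT library in this ratio. *Rpl7l1*, which despite its name works in ribosome assembly, received 9.06 ± 1.55 counts per 100 of *Rpl7* in testes and 10.7 ± 1.63 in forebrain. In testes this ratio was 6.85 to 7.53 in WT, 7.85 to 11.2 in Het and 9.10 to 10.6 in KO, with no overlap with WT. The ratios of *Rpl10l*, *Rpl35rt*, *Rpl39l* and *Rps27l* to their parents were also higher in every mutant testis than in either WT testis. For the other pairs, apart from *Rps4l* and *Rpl22l1*, mutant and WT testes overlapped. Adding the counts of the named pseudogenes to their parents gave 16 genes that fell and 3 that rose in Het testes and 9 that fell in KO testes.

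Related genes were counted by lists. The lists overlap, so their counts are not independent. *Eef1b2* and *Tpt1* are on the TOP and elongation lists, *Eif3e* on the TOP and initiation lists, and *Npm1* on the TOP and biogenesis lists. Beside these counts, 8.25% of all genes tested were called in Het and 5.64% in KO testes, and 3.89% and 4.85% in Het and KO forebrain. Of the 19 other genes listed as having TOP mRNAs, 0 rose and 5 fell in Het while 0 rose and 2 fell in KO testes, with medians of -0.24 and -0.25. Of the same list, 0 rose and 1 fell in Het forebrain and 0 rose and 3 fell in KO forebrain. *Nap1l1*, a histone chaperone, fell by edgeR in all 4 comparisons with WT, with log2 fold changes of -0.67 and -0.49 in testes and -0.27 and -0.36 in forebrain of Het and KO pups. *Eef1b2*, an elongation factor subunit, fell in testes with -0.69 and -0.50. Of the 11 elongation genes, 0 rose and 2 fell in Het and 0 rose and 1 fell in KO testes, and of the 30 initiation genes 0 rose in either, 5 fell in Het and 1 fell in KO testes. Of the elongation list 0 rose and 0 fell in Het forebrain and 0 rose and 0 fell in KO forebrain, and of the initiation list 1 rose and 1 fell in Het forebrain and 1 rose and 2 fell in KO forebrain. *Eif4a2*, an RNA helicase of initiation, fell by 1.00 and 0.68 on the log2 scale in testes and by 0.48 and 0.46 in forebrain. Neither *Fau* nor *Rack1*, subunit genes outside the symbol rule, was called by edgeR in either organ, with log2 fold changes of 0.11 and -0.24 in Het testes.

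Of the 53 ribosome biogenesis genes, 4 rose and 2 fell in Het and 1 rose and 0 fell in KO testes, with medians of 0.046 and 0.085, and in forebrain 2 rose in Het and 4 in KO with none that fell. *Utp20*, a component of the small subunit processome, rose in all 4 comparisons with WT, with 0.57 and 0.69 in testes and 0.77 and 0.93 in forebrain. Of the 14 RNA polymerase I genes, 0 rose and 0 fell in Het and 1 rose and 0 fell in KO testes. Of the 78 mitochondrial ribosomal protein genes, 3 rose and 0 fell in Het and 2 rose and 0 fell in KO testes, with medians of 0.16 and 0.12. These testes counts, 3 and 2 of 78, lie below the shares of all genes, and in the same list 3 rose and 0 fell in Het forebrain and 2 rose and 0 fell in KO forebrain. For RNA polymerase I 0 rose and 1 fell in Het forebrain and 1 rose and 1 fell in KO forebrain. Of 26 genes of mTORC1 signalling and Myc, 1 rose and 0 fell in Het testes and likewise in KO testes. Of 15 p53 targets 2 rose and 1 fell in Het testes and likewise in KO testes. In forebrain 0 rose and 1 fell in Het and 1 rose and 0 fell in KO of 25 tested mTORC1 and Myc genes, and 0 rose and 0 fell in Het and 2 rose and 0 fell in KO of the p53 targets. Among 12 host genes of snoRNAs, which also begin with pyrimidine runs, 0 rose and 3 fell in Het and 0 rose and 3 fell in KO forebrain. *Snhg1* stood at -0.82 and -1.11, *Snhg5* at -0.90 and -0.99, and *Snhg17* at -0.66 and -0.83 there. In testes *Snhg5* was the host gene that fell, with -0.47 and -0.49. These log2 fold changes are from the same edgeR fits, and list counts were not tested against other lists.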

How the data were processed

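RNA-seq was carried out on 8 testes and 9 forebrain samples of newborn male mice. The authors trimmed the reads with Trim Galore 0.6.6, aligned them to GRCm39 with STAR 2.7.8a and quantified genes with RSEM 1.3.3, and deposited a table of expected counts, that is, estimated counts in which reads shared between genes are divided by likelihood, with no normalization. The GENCODE release and strand setting are not given in the sources used here. Only RNA of high integrity, enriched for polyA, had been sequenced. Expected counts were rounded to whole numbers, filtered with filterByExpr and scaled by TMM, and each organ was fitted over its 3 genotypes with the robust quasi-likelihood test of edgeR 4.0.16 in R 4.3.3, with Benjamini-Hochberg adjustment over all genes and a threshold of 0.05. Fits across organs used all 17 libraries. CPM are counts scaled to the TMM effective library size, except that marker sums are scaled to total counts. SD is over libraries and SE is from the fit. DESeq2 1.42.0, other scalings, filters and left-out libraries were tried as alternatives, and scripts were tested on simulated data. No label ties libraries of an organ to litters, so p-values measure the spread between these samples. Coordinates and lengths are from GENCODE vM39, in which 54749 of 55359 genes were found.

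The members and lists were chosen with earlier results of these data known. Genes were named if called in both genotypes of an organ, by role (stalk, Mdm2 binding, Diamond-Blackfan anaemia, *Rps6*, *Rpsa*, *Rps27a*), as paralog pairs, by the largest difference between organs, or by the highest and lowest level per length. The other called genes and *Rpl17* and *Rps15* were added after their values were seen, as was the coding length. A few single-gene results are not reported here.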

Additional observations from a re-analysis of the deposited data

Results flagged for a closer look

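The difference of the mutant effect between testes and forebrain passed the test for 9 ribosomal protein genes, and this difference is what marked them for a closer look. Among them, the log2 difference, testes minus forebrain, was -0.71 for *Rpl22l1*, -0.69 for *Rpl29*, -0.69 for *Rpl28*, -0.65 for *Rpl35*, -0.55 for *Rps3a1*, -0.51 for *Rps20*, -0.50 for *Rps10* and -0.49 for *Rpl4*, with adjusted p over the 9 from 0.0102 to 0.0469 (edgeR). *Rpl29* had 73.3 and 87.7 CPM in WT, 73.6, 51.6 and 73.4 CPM in Het and 43.6, 64.5 and 54.2 CPM in KO testes, and 34.8, 38.9 and 35.4 CPM in WT, 38.5, 49.8 and 41.7 CPM in Het and 44.01, 40.5 and 45.4 CPM in KO forebrain. *Rps20* had 519 and 521 CPM in WT, 331, 383 and 428 CPM in Het and 388, 474 and 375 CPM in KO testes, and 194, 215 and 165 CPM in WT, 191, 227 and 212 CPM in Het and 202, 196 and 211 CPM in KO forebrain. *Rps20* was lower in every mutant testis than in either WT testis, whereas for *Rpl29* Het replicates 1 and 3 overlapped with WT. With testes WT replicate 2 left out no gene of the 9 passed, and the count over the set ran from 0 to 24 over all left-out libraries. The GC relation and the marker levels that move with the testes genotypes are given with the library description, and their part in the result was not tested. No group of testes or forebrain libraries held 4 or more samples, so single libraries were not tested for standing apart.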

How the results depend on the processing

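With 1 library left out at a time, the count ran from 0 to 27 in Het and 0 to 27 in KO testes, 0 to 5 in KO against Het testes, 2 to 6 in Het and 0 to 3 in KO forebrain, 0 to 24 for the difference of the mutant effect between organs and 82 to 87 between organs. The count of 0 in Het and KO testes was reached when either WT testes library was left out, which leaves a single WT testes library assumed to vary like the mutant libraries, and 27 without testes KO replicate 2. DESeq2 gave 25 in Het and 23 in KO testes, 6 and 4 in forebrain and 18 for the difference of the mutant effect, and the likelihood ratio test gave 14 for the last. With no filter on low counts there were 21 in KO testes, 3 in KO against Het testes, 7 in Het forebrain and 20 for the difference. Fitting only the 2 genotypes compared gave 6 in Het forebrain, offsets by GC content 13 in Het testes, and offsets by transcript length 5 in Het and 6 in KO forebrain. Scaling to library size alone gave 5 for the difference of the mutant effect, and moved the median log2 fold change of the set in KO forebrain from -0.0097 to 0.091. *Rpl15* between organs changed sign under that scaling, from -0.23 to 0.093, while the median of all genes moved from 0.087 to 0.40. Except where the construction of an alternative shows it, the cause was not tested. Calls over all genes are not given beside these counts. A move of the set therefore cannot be told from a move of all genes.

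With the replicate number as a replicate block, the counts were 15 in Het and 9 in KO testes, 4 and 4 in forebrain, 78 between organs and 7 for the difference of the mutant effect. The correlation of deviations between libraries of the same number was -0.21 to 0.19 in testes and -0.17 to 0.38 in forebrain, and 4 of 8 testes and 5 of 9 forebrain libraries correlated best with a library of their own number. Since some same-numbered pairs deviated in opposite directions, and no label ties the numbers to a litter or day, the numbers were not taken as pairs. With 2 WT testes, centring mirrors their correlations, so the testes range carries little information. The pair of WT testes, reads shared with pseudogenes and a depth of 7302401 counts or more in testes limit the precision.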
